A study of Mus musculus with 4 samples.

Results

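Genes whose transcripts were counted at more than 1 restriction site were examined in alveolar macrophages of mice, which take up debris and surfactant on the surface of the lung's alveoli. The members were chosen by their measured counts: a tag was kept where its count summed over the 4 libraries reached 20, and its gene was kept where at least 2 such tags carried the same deposited symbol. This left 3129 tags in 1131 genes, of 30627 tags listed, 15785 with a count in any library and 5437 with a summed count of 20 or more. Each of 690 genes had 2 such tags, 238 had 3, 173 had 4 to 6, and 30 had 7 or more, up to 14. The tags held 81.7% to 83.8% of the counts of a library. Since the summed count selected them, it is given here as a description. At the threshold, 65 members had a summed count of exactly 20, and 159 listed tags with a summed count of 19 stayed out.

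The cells came from wild-type BALB/c mice. One group was untreated. In the other, lung metastases had formed by day 21 after intravenous injection of BNL, a hepatocellular carcinoma line of mouse. There were 2 libraries per group, made by serial analysis of gene expression (SAGE). The labels give neither the age of the mice nor the number of animals behind a library, and the spread that p-values rest on is that of these libraries, possibly technical. No sham injection is given for the untreated mice, and effects of injection and of metastasis cannot be told apart.

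Library totals ranged from 1630776 to 2198563 counts. No library holds a count of 1, so a tag listed at 0 had 0 or 1 reads. Of 16 alveolar macrophage marker genes, 15 had counts (Fabp4 had none), and their summed level was 1336 and 2849 CPM (counts scaled to a common library total) in untreated and 1776 and 3715 in day 21 libraries. For 10 markers of monocyte-derived or interstitial macrophages, of which only Cx3cr1 is not listed, the sum was 53.1 and 106 CPM against 2187 and 3129. Most of that sum was Apoe. Scaled over tags with a summed count of 20 or more, its leading tag had a mean of 49.5 CPM in untreated and 2098 in day 21 libraries. The leading tag of C1qc, another of the 10, had means of 0 and 50.3 CPM. For 6 neutrophil markers the sum was 9.90 and 145 against 75.3 and 262 CPM. Only 4 of these 6 are listed, and Retnlg, Ngp and Cxcr2 had no count. The sum was 93.3 and 192 against 20.3 and 22.5 CPM for 5 markers of club and ciliated cells, of which 4 are listed. No marker of lymphocytes or type 2 epithelium had a count, but only 3 of 8 and 1 of 6 of those are listed. Whether these cell types play a part in the tag shares was not tested.

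In SAGE, cDNA is fixed by its poly(A) end and cut with NlaIII, which cuts at CATG, and the tag is the stretch next to the cut that stays on the bead. A fully cut transcript therefore gives a tag at its last CATG before the tail. A transcript that ends earlier at another polyadenylation signal gives the last CATG of that shorter form, and a site that escapes cutting, or priming inside the transcript, gives tags further upstream. Such sources leave the same kind of tag, and the tag alone does not separate them.

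The sequences below show each kind of site that the results turn on, with the NlaIII site in capitals, 5′ to 3′. Each was read from the deposited tags, and positions come from a match to GENCODE M21 transcripts (GRCm38). The first is the most counted tag of all, at the last site of cathepsin D (Ctsd, a lysosomal aspartic protease, chr7:142376016-142376040, minus strand, 3′ UTR). The pairs of Ctsb (cathepsin B, a lysosomal cysteine protease, chr14:63142438-63142462 and chr14:63142442-63142466, plus strand, 3′ UTR), Zfand6 (a zinc finger protein, chr7:84615488-84615512 and chr7:84615484-84615508, minus strand, 3′ UTR) and Fth1 (the ferritin heavy chain, chr19:9984990-9985014 and chr19:9984994-9985018, plus strand, 3′ UTR) lie on adjoining sites. Those of Dad1 (a subunit of the oligosaccharyltransferase, chr14:54253819-54253843 in exon 1 and chr14:54235635-54235659 in the 3′ UTR, minus strand) and Ldha (lactate dehydrogenase A, chr7:46849045-46849069 in the coding sequence and chr7:46855601-46855625 in the 3′ UTR, plus strand) lie at opposite ends of the transcript. The last 2 are the tag deposited as Gm3903, which lies antisense to the 3′ UTR of beta-actin (Actb) at chr5:142903462-142903486, and the Actb tag itself (chr5:142903364-142903388, minus strand).
Ctsd, last site: CATGcctcagcctggggtagaggta
Ctsb, first of adjoining sites: CATGcatgaagcttttggcaagatt
Ctsb, second of adjoining sites: CATGaagcttttggcaagatttgga
Zfand6, first of adjoining sites: CATGcatgcgttgatcttgcagttt
Zfand6, second of adjoining sites: CATGcgttgatcttgcagtttattt
Fth1, first of adjoining sites: CATGcatgtcaggctgccttcatct
Fth1, second of adjoining sites: CATGtcaggctgccttcatcttttc
Dad1, on the start codon: CATGtcggcgtctgtggtgtccgtc
Dad1, last site: CATGgcttcttcagattcgtgcttg
Ldha, coding sequence: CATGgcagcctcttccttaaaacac
Ldha, last site: CATGccaaataaaaccttgaacagt
Gm3903: CATGgatacttggaatgactattaa
Actb, last site: CATGccctgagtccaccccggggaa

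Most members lay upstream of the last site, while most counts lay on it. On annotated transcripts of their own gene 2998 tags could be placed. Of all members, 705 were the last NlaIII site of every complete transcript that holds them, 255 the last site of some transcripts, and 2037 (65.1%) the last site of none. These upstream tags held 11.3% and 16.2% of the members' counts in untreated replicates 1 and 2 and 12.5% and 14.7% in the day 21 ones. By region, 1402 placed tags began in coding sequence, 1315 in a 3′ UTR, 249 in a 5′ UTR and 32 in noncoding transcripts. Of the 249 in the 5′ UTR class, 226 held the annotated start codon within the CATG itself, as in Dad1. Annotated exon junctions were crossed by 254 tags.

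The share of counts by rank of the site was taken in 294 genes with 100 counts or more in every library and 6 or more NlaIII sites in the transcript used as reference. The last site took a mean of 38.5% and 35.0% of the counts of a gene in untreated replicates 1 and 2, and 35.4% and 32.3% in the day 21 ones. From the second to the sixth site the mean was between 4.77% and 7.84% in every library. In each it fell from the second to the fourth site and was higher again at the fifth and sixth. Counted from the other end, the first 4 sites took 4% to 6.75% each, lowest in untreated replicate 1 and highest in day 21 replicate 2 at each of these 4 ranks. Not every site is in the tables: of 13974 sites of the reference transcripts of 1093 genes, 5898 are listed, and for 198 genes the last site is not among the listed tags.

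**Figure D1:**
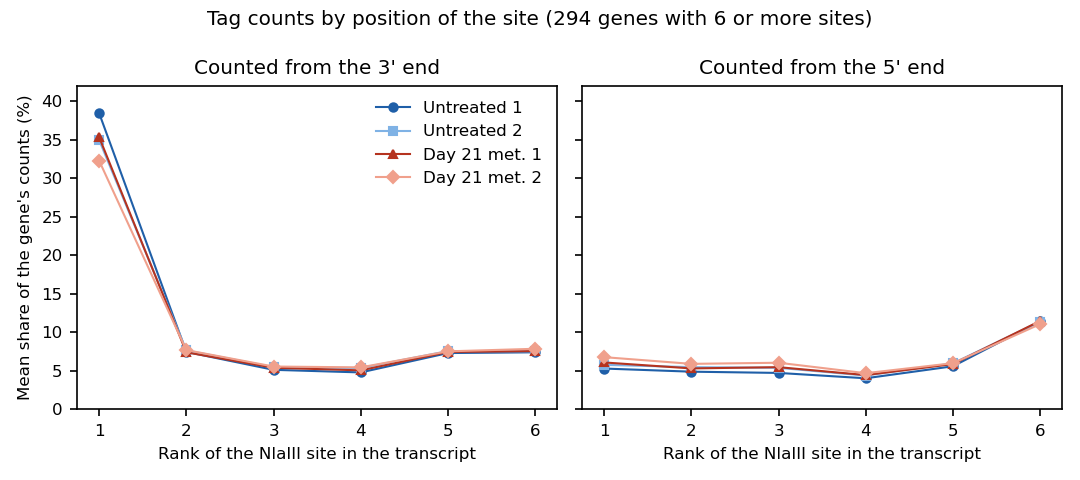
Mean share of the counts of a gene (y axis, percent) at each NlaIII site by its rank (x axis) from the 3′ end (left) or the 5′ end (right), in 294 genes; each line is 1 library (U or Untreated, untreated mice; Day 21 met., mice with metastases). The site nearest the 3′ end stands at 32.3% to 38.5%, and the other ranks lie at 11.5% or less. The sixth rank from the 5′ end is itself the last site in transcripts with 6 sites.

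Within a gene, 1 tag usually dominated. The most counted tag held a median of 69.1% of a gene's counts (interquartile range 56.7% to 88.5%, mean of 4 libraries), at least 90% in 262 genes and under 50% in 127. It lay at a last site in 477 genes and upstream in 611. In the 394 genes with 100 counts or more in every library, which hold 1371 tags, the median was 89.7% and the top tag was the same in all 4 libraries in 349 genes. In the other 45 it differed between libraries, but in only 2 of them, Ddx5 and Fpr1, did it agree within each group and differ between the groups.

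Of the 10 symbols of largest summed count, Ctsd, Trf, Laptm5, Aldoa, Rpl37a, Rps2 and Eef1a1 had nearly all of it on the last site. The Ctsd tag above took 97.7% and 96.9% of the gene in untreated replicates 1 and 2 and 97.9% and 97.4% in the day 21 ones, out of 7 member tags. Transferrin (Trf, an iron carrier of plasma) had 98.0%, 96.6%, 97.8% and 97.4% in the same order, and Laptm5, a lysosomal membrane protein of leukocytes, 98.3%, 94.9%, 97.9% and 96.0%. The last site of aldolase A (Aldoa, glycolysis) took 96.0% to 97.6%, of the ribosomal proteins Rpl37a and Rps2 99.3% to 99.6%, and of the elongation factor Eef1a1 95.5% to 98.7%. Exact Clopper-Pearson 95% intervals of these shares reach at most 0.295 points to a side, and all such intervals here cover counting error only, since PCR copies were not told apart. For Rps2 and Eef1a1 the tag also matches 29 and 12 other annotated genes or pseudogenes. In Ctsd, Trf, Laptm5, Aldoa, Eef1a1 and Rps2 the shares of this tag overlapped between the groups.

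Lamp1 and Atp13a2, also among those 10, divided their counts more between distant sites, and Gm3903, the remaining one, lies antisense to Actb. The last-site tag of Lamp1, the main membrane glycoprotein of lysosomes (chr8:13174447-13174471, plus strand, coding sequence of the last exon), took 96.5% and 77.0% of the counts in untreated replicates 1 and 2 and 91.1% and 89.4% in the day 21 ones. Its next site upstream, in exon 4, held most of the rest, from 3.37% in untreated replicate 1 to 22.4% in untreated replicate 2. The day 21 values thus lay between those of the untreated pair. Atp13a2, a lysosomal transport ATPase, had 10 member tags and its last site took 86.3% and 76.0% against 83.0% and 77.9%. A site in exon 26 of its 29 exons took 13.0% and 22.6% against 15.8% and 18.7%.

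Psap (prosaposin, precursor of the sphingolipid activator proteins of lysosomes) had 14 member tags, as many as any gene. Its last site in the 3′ UTR took 59.4% and 49.7% in untreated replicates 1 and 2 and 53.6% and 26.4% in the day 21 ones, with counting intervals of at most 1.86 points to a side. A site in exon 5 of 14 took 19.6%, 24.6%, 26.8% and 45.9% in the same order. Day 21 replicate 2 stood apart from the other 3 libraries at both sites. The fitted log2 change of the last-site share was -0.52 ± 0.92 (SE) and of the exon 5 share 0.74 ± 0.93, neither past its error.

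Flna (filamin A, an actin crosslinker) spread 11 member tags over a long transcript with 47 sites, and no library had more than 49.8% of its counts on 1 tag. Its last site took 25.8% and 8.53% in the untreated and 11.2% and 2.62% in the day 21 libraries, lowest again in day 21 replicate 2. In Hspa8, a constitutive heat shock cognate chaperone with 10 member tags, a coding site in exon 3 led with 67.5% and 65.2% against 69.6% and 78.4%, although that tag also matches 5 annotated pseudogenes or other genes. The last site of Hspa8 took 18.9% and 14.0% against 13.6% and 4.05%. Actb itself, with 10 member tags, had 84.9% and 69.5% of its counts on the last site in untreated and 58.8% and 81.8% in day 21 libraries, so the 2 libraries of each group were far apart.

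Ctsb counts lay on none of its last annotated sites. Its 4 most counted tags sat 18 to 28 sites from the end of a reference transcript with 29 sites, and the leading pair lay 3486 and 3482 bases from that end. The first took 51.3% and 51.3% of the gene in the untreated and 52.0% and 55.8% in the day 21 libraries, and the second 27.5% and 27.7% against 27.9% and 28%. Man2b1 (lysosomal alpha-mannosidase) had 99.4% to 99.7% on a junction tag of exon 20, and Ap2m1 (a subunit of the clathrin adaptor AP-2) 93.9% to 97.0% on a coding site. Rpl14 had 99.1% to 99.5% on a coding site and Skp1a, deposited under the older name of Skp1 (a ubiquitin ligase subunit), 96.7% to 98.6% on a 3′ UTR site. These 5 genes led the rule for counts away from annotated last sites, and 76 of the 394 well counted genes had all member counts there. In 83 of the 394 no member lay on a last site.

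Some pairs of tags of 1 gene came from the same place. Where the transcript reads CATGCATG, NlaIII can cut at either of the adjoining sites, and the tags start 4 bases apart. Of 10 members that sit on the first of such sites, 9 had a member on the second. For Ctsb the first site took 65.1%, 64.9%, 65.1% and 66.6% of the counts of the pair (untreated replicates 1 and 2, then day 21 replicates 1 and 2), and the pair made up 78.8% to 83.9% of the gene. For Fth1 it took 25.9%, 25.7%, 24.0% and 28.4%, and the pair made up 92.2% to 96.9%. Zfand6, named with Slc39a13 after its values were seen, was near an even split at 50%, 48.5%, 53.9% and 52.1%, and its pair made up 100% of its member counts. Slc39a13, a zinc transporter, had 76.1%, 74.4%, 73.1% and 64.4%. The split thus differed between genes, from 24.0% to 76.1% in these 4, by more than it differed between libraries of a gene.

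**Figure D2:**
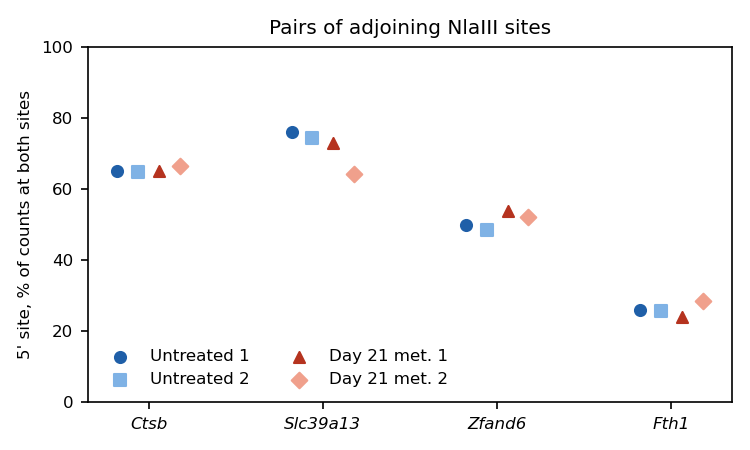
Share of the first (5′) site in the counts of 2 adjoining NlaIII sites (y axis, percent) in 4 genes, 1 point per library (Untreated, untreated mice; Day 21 met., mice with metastases). Ctsb lies at 64.9% to 66.6% and Fth1 at 24.0% to 28.4% in all 4 libraries.

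Polyadenylation signals were sought as AATAAA in the 200 bases after a site, on the transcript strand only, where that many bases remained. Among 12787 sites of the reference transcripts, with the last site of each left out, the hexamer followed 7.01%. It followed 7.68% of 976 upstream members with a mean share under 20%, 10.8% of 500 at 20% to under 50%, and 7.75% of 516 at 50% or more. Members that are last in some transcripts had it at 30.2% of 245, and those last in all transcripts at 16.9% of 331. The rest of the 705 members last in all transcripts lay too near the end for this window and were left out. For the 331 kept, the window can stop before a signal near the end of the transcript. The 16.9% is therefore no measure of how many last sites precede a signal. The last site of a reference transcript lay a median of 155 bases from its end. A run of 8 A bases followed 1.79% of those 12787 reference sites, and 2.56%, 2.60% and 2.52% of the upstream members in the same order of share. A match is a description of the sequence, not of a used signal.

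The test of tag shares between the groups called no tag and no gene. With edgeR's quasi-likelihood test of each tag against its whole gene, 0 of 3129 tags had a Benjamini-Hochberg adjusted p under 0.05 (0% of those tested), the smallest adjusted p was 0.999999, and 27 had an unadjusted p under 0.05 (0.863%), 11 with a higher (0.352%) and 16 with a lower share (0.511%) at day 21. The gene-level F test called 0 of 1131 genes (0%), with 24 at an unadjusted p under 0.05 (2.12%) and a smallest adjusted p of 0.991. With limma-voom's diffSplice 0 tags were called, with 35 at an unadjusted p under 0.05. With 2 libraries a group, a p that misses the threshold does not show that shares were alike.

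The 10 tags of smallest p were minor tags of their genes or came from thinly counted genes. The first was the exon 5 site of Atp13a2 (chr4:140994022-140994046, plus strand), far from the 3′ end, with 8 and 11 counts in the untreated and 29 and 31 in the day 21 libraries. Its share of the gene was 0.0148% and 0.0776% against 0.165% and 0.989%, a fitted log2 change of 3.60 ± 1.17 (SE, unadjusted p = 0.00478, edgeR's adjusted p = 0.999999). The gene had 54076 and 14179 counts in the untreated and 17612 and 3135 in the day 21 libraries. This tag was the only one that an alternative called, with an adjusted p of 0.0389 in edgeR's likelihood ratio test and 0.00283 with the replicate number as a block. Over all alternatives its adjusted p ran from 0.00283 to 0.999996.

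In Rtn3, which shapes the endoplasmic reticulum, the second-last site had 0 and 4 counts in untreated and 9 and 22 in day 21 libraries, or 0% (at most 1.16%) and 0.515% against 2.12% and 4.22%. A coding site of Pdlim1, a PDZ and LIM domain protein of the cytoskeleton, had 12 and 25 counts against 0 and 0, out of gene totals of 1290 and 1645 against 313 and 133, and the 2 zeros allow shares up to 1.52% and 3.57%. Zyx (zyxin, a focal adhesion protein) had 6 and 14 against 0 and 0 counts at an exon 5 site, where the zeros allow up to 0.559% and 0.999%. A coding site of Ecm1, a secreted matrix protein, had 0 and 0 against 17 and 57 counts, but in untreated libraries the gene had only 110 and 104 counts and the zeros allow 4.31% and 4.56%. Each limit is the Poisson 95% limit for 0 or 1 reads, 4.74 counts. Without day 21 counts the Rtn3 and Ecm1 tags, and without untreated counts the Pdlim1 and Zyx tags, would not have reached a summed count of 20.

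The Pon2, Arpc1b and Lrrc58 tags lay in 3′ UTRs and had lower shares in both day 21 libraries. The last site of Pon2, a paraoxonase, took 17.3% and 4.80% in the untreated and 4.05% and 0.444% in the day 21 libraries (log2 change -2.54 ± 0.92, unadjusted p = 0.0155, edgeR's adjusted p = 0.999999). The 3′ UTR site of Arpc1b, a subunit of the Arp2/3 complex, took 1.56% and 0.849% against 0.363% and 0.223%, while its leading exon 9 tag held 97.8% to 99.4%. The last site of Lrrc58 had 30 and 13 against 3 and 0 counts, but 4 of the 5 member tags of Lrrc58 also match Actb, so the counts of this gene may belong to either. Likewise all 6 tags of Gm12715 match the cytoplasmic actin gene Actg1, and the sign of the tag named by the rule rested on untreated replicate 2 (74 counts of 4, 74, 7 and 2): the log2 change was -2.33 ± 0.96 with it and 0.36 without it. In App, the amyloid precursor protein, an exon 5 site had 2 and 8 counts against 39 and 13, or 3.70% and 14.0% against 41.9% and 54.2%, with a counting interval of up to 21.3 points to a side.

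Larger moves in percentage points were seen in well counted genes, without a call. Among the 1371 tags of the 394 genes with 100 counts or more in every library, the groups did not overlap for 435 tags (31.7%), with 216 higher (15.8%) and 219 lower (16%) in both day 21 libraries. Over all 3111 members with shares in 4 libraries, 1079 did not overlap (34.7%). With 2 libraries against 2, a fraction of 0.333 of the possible orders has no overlap, so these counts show no group difference. In the 1371 tags the median absolute difference between group means was 1.10 points, 118 tags differed by over 10 points and 13 by over 20. The tags with the largest such differences lay in Ldha, Canx, Tm9sf2, Cops7a, Slc25a5, Polr2l, Ogdh and Dad1. They were chosen for that difference, which is therefore given as a description.

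In Ldha the last-site tag printed above took 55.7% and 39.7% of the counts in untreated replicates 1 and 2 and 32.4% and 13.3% in the day 21 ones, and the coding tag in exon 3 the rest. The log2 change of the last-site share was -1.10 ± 0.73 (SE, unadjusted p = 0.166, edgeR's adjusted p = 0.999999). The coding tag also matches 7 other annotated genes or pseudogenes. In Dad1 the start-codon tag took 61.9% and 66.5% against 78.4% and 87.8%, with the last site at 38.1% and 33.5% against 21.6% and 12.2% (log2 change -1.15 ± 0.68, unadjusted p = 0.16). Both genes had only 2 member tags, so a higher share of 1 tag is a lower share of the other.

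Tm9sf2, an endosomal membrane protein, had 44.0% and 77.5% on a start-region tag of exon 1 (chr14:122107267-122107291, plus strand) in untreated libraries and 77.8% and 90% in day 21 ones. Untreated replicate 2 and day 21 replicate 1 were alike there, and the size of the difference rested on the outer pair. Canx (calnexin, a chaperone of the endoplasmic reticulum) had 45.3% and 62.9% against 72.6% and 82.3% on a coding site in exon 12, and its 3′ UTR site of second rank in count 33.6% and 13.4% against 11.3% and 3.94%. Cops7a, a subunit of the COP9 signalosome, had 47.5% and 50.3% against 65.9% and 73.3% on a 5′ UTR site in exon 2. Slc25a5, the mitochondrial ADP/ATP carrier, had 65.5% and 59.2% against 53.7% and 30.4% on its last site.

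Polr2l and Ogdh involve tags of repeated sequence. The last site of Polr2l, a small subunit shared by RNA polymerases, took 48.6% and 39.3% against 21.5% and 25.8%, and its tag also matches 3 other annotated genes. The leading tag deposited as Ogdh (oxoglutarate dehydrogenase of the citrate cycle) took 77.7% and 79.3% against 59.2% and 59%, but it matches 21 other annotated genes and no Ogdh transcript, while the tag placed on Ogdh itself took 21.3% and 20.2% against 39.6% and 37.5%. It is printed here with the leading tag of Slc7a14, chosen after its values were seen, because both, like the Polr2l tag, start with the same 14 bases.
Ogdh, leading tag: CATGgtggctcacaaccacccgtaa
Polr2l, last site: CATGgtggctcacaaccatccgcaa
Slc7a14, leading tag: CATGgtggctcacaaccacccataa
In all, 24 members match 12 or more genes, and 2 match 100 or more: the leading tags of Gas2l3 (356 genes) and Eif4g2 (202 genes), also named after their values were seen. For such tags the deposited gene name is 1 of many possible sources.

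In the 2 genes whose leading tag differed between the groups, a library of one group came close to equal shares. Ddx5, an RNA helicase, had 46.2% and 35.3% in the untreated and 34.7% and 23.5% in the day 21 libraries on a 3′ UTR site 1226 bases from the end (chr11:106781556-106781580, minus strand), and 24.0% and 32.2% against 35.7% and 38.7% on a coding site in the same last exon. In day 21 replicate 1 these 2 sites were separated by less than their counting intervals, of up to 6.44 points to a side. Fpr1, a receptor for formylated peptides of bacteria, had 52.7% and 47.4% against 42.3% and 28.4% on its last site and 39.3% and 40.8% against 50.6% and 59.7% on a coding site. Both were chosen for that switch after their values were seen, so no test is drawn from it, and their gene-level adjusted p was 0.991 by edgeR.

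**Figure D3:**
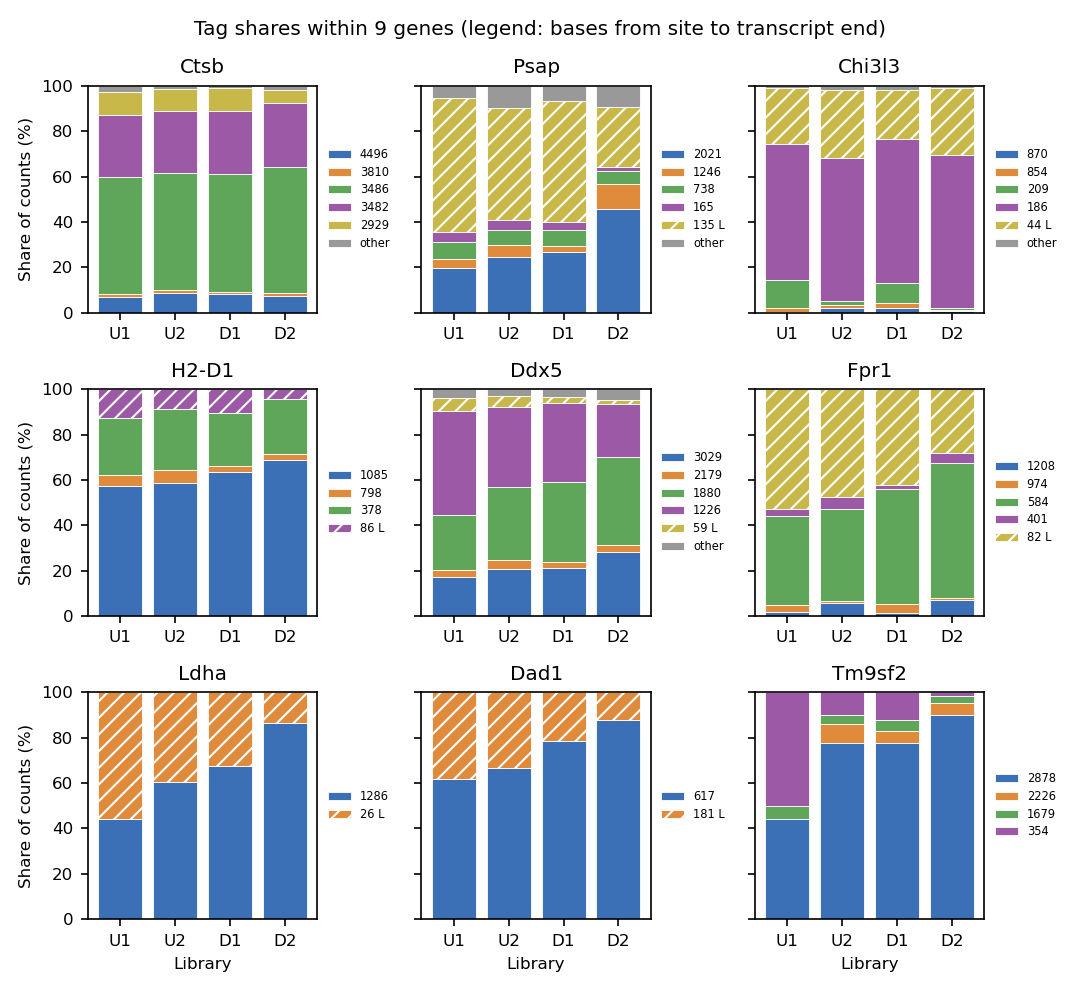
Share of counts (y axis, percent) of the 5 most counted member tags of 9 genes in each library (x axis; U1 and U2 untreated, D1 and D2 day 21 with metastases), stacked from the most 5′ site at the bottom to the most 3′ site at the top. Legends give the distance in bases from the site to the end of the transcript, L and hatching mark last sites, and grey is the sum of the other tags. Ctsb is near constant, and in Ldha and Dad1 the last site takes its largest share in U1 and its smallest in D2.

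Non-overlapping shares were about as frequent at last sites as upstream, but their direction was split differently, a difference that was not tested. Of 370 last-site tags of the 394 genes, 25 were higher and 96 lower in both day 21 libraries (32.7% not overlapping), and of 943 upstream tags 185 were higher and 108 lower (31.1%). Tags on a start codon were higher in 34 and lower in 7 of 101, beside 15.8% higher and 16% lower over all 1371 tags. Summed over the last-site members of a gene, 84 of 311 genes had a lower share in both day 21 libraries (27%) and 16 a higher one (5.14%), and the groups overlapped in 211. Shares within a gene add up to 100%, so these counts are not independent, and none of the differences passed the test above.

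The 4 libraries formed an order in this measure in which the groups were not cleanly apart. Untreated replicate 1 had the highest last-site share of the 4 in 203 of the 311 genes, and day 21 replicate 2 the lowest in 172. The mean over the 311 genes was 69.4% and 65.4% in untreated replicates 1 and 2 and 66.1% and 62.0% in day 21 replicates 1 and 2, so untreated replicate 2 and day 21 replicate 1 lay between the other pair. Measured as the share of a gene's counts that would have to move to another tag to make 2 libraries equal, the median over 394 genes was 3.71 points between the untreated libraries and 4.08 between the day 21 ones. Between groups it was 2.82, 3.10, 3.80 and 5.99 points, so 3 of the 4 pairs across groups were closer than the day 21 pair.

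**Figure D4:**
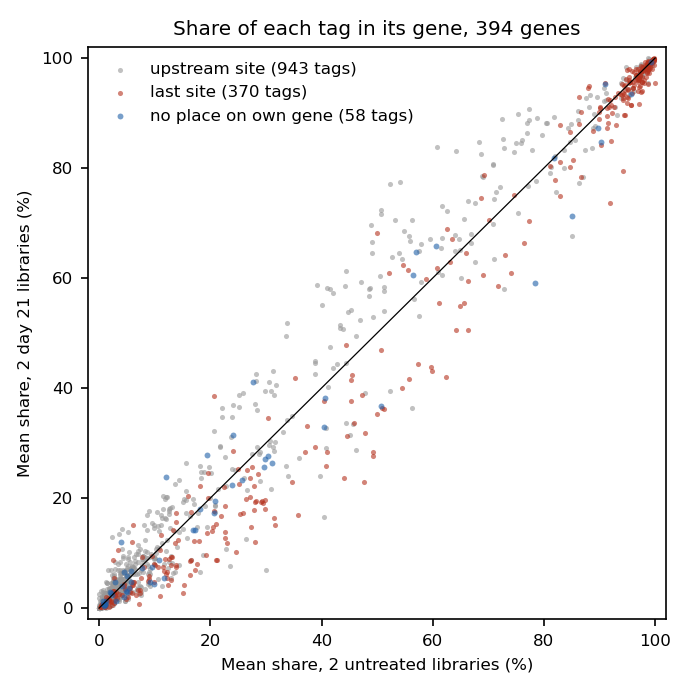
Mean share of each tag within its gene in the 2 untreated libraries (x axis, percent) against the 2 day 21 libraries (y axis, percent) for 1371 tags of 394 genes; the line marks equal shares. Last-site tags (370) lie more often below the line and upstream tags (943) above it.

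Over the counts of all members summed, the last site gave the opposite sign. It held 74.6% and 68.6% of the counts in untreated libraries and 82.7% and 74.9% in day 21 ones, a mean of 71.6% ± 4.25 (SD, n = 2) against 78.8% ± 5.53 (SD, n = 2). The exact two-sided permutation p was 0.333, the smallest that 2 libraries against 2 allow. The difference of 7.22 points became -2.85 points without Ctsd and Gm3903, which together hold 34.1% to 43.7% of a library's counts, and -2.62 points as the mean over the 394 genes of the share within each gene.

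**Figure D5:**
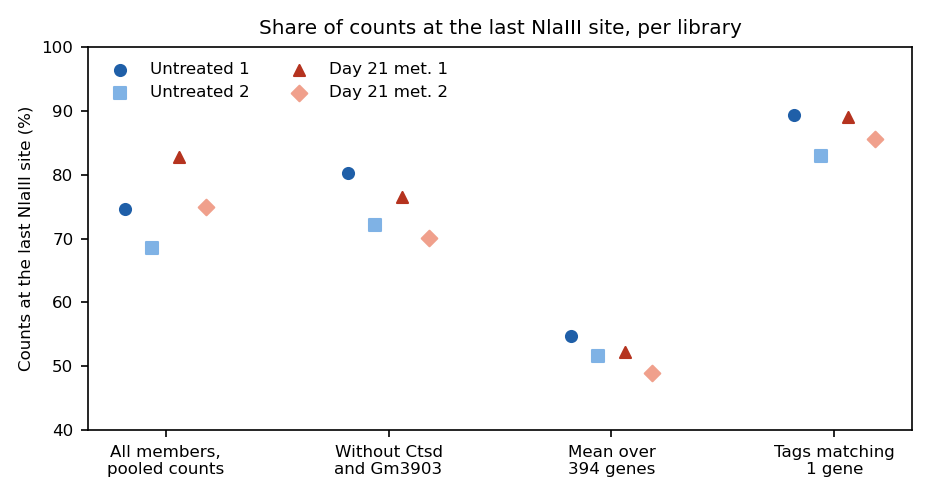
Share of counts at the last NlaIII site (y axis, percent, from 40) per library, in 4 ways of counting (x axis). Pooled over all members the day 21 libraries stand at 82.7% and 74.9%; without Ctsd and Gm3903, and as a mean over 394 genes, untreated replicate 1 is the highest.

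Members called for abundance were few, and they lay in Apoe, Cd63 and C1qc, of which the last pair were named after their values were seen. In bulk RNA, fewer cells of a type and less RNA per cell cannot be told apart. Over all 5437 tags tested for abundance with edgeR's quasi-likelihood test, 6 had an adjusted p under 0.05 (0.11%), of which 3 were members, and 221 had an unadjusted p under 0.05 (4.06%), of which 143 were higher (2.63%) and 78 lower (1.43%). Among the members 78 were higher and 46 lower at that p. The leading tag of Apoe, the lipid carrier apolipoprotein E (chr7:19696449-19696473, minus strand), had 58 and 175 counts in untreated and 2883 and 3659 in day 21 libraries (log2 change 5.40, adjusted p = 0.0354). Its adjusted p ran up to 0.0537 over the alternatives, reached when only tags that match 1 gene were tested. Its share of the gene was 100% and 91.1% against 95.3% and 96.2%. The last-site tag of C1qc, a chain of the complement component C1q, had 0 and 0 against 103 and 59 counts (adjusted p = 0.0444, and up to 0.983 over the alternatives, with limma-voom), and its share at day 21 was 84.4% and 83.1%. With no counts in untreated libraries, no share exists there and no comparison can be made.

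Cd63, a tetraspanin of lysosomes and secretory granules, was the gene in which a called tag was an upstream one. Its second-last site (chr10:128912211-128912235, plus strand) had 4 and 8 against 245 and 401 counts (log2 change 6.27, edgeR's adjusted p = 0.0354, or 0.0606 without day 21 replicate 2), and its last site 14 and 14 against 311 and 215 (log2 change 4.67, adjusted p = 0.0577). The tag of the second-last site also matches the annotated pseudogene Cd63-ps, and that of the last site matches Cd63 alone. Within Cd63 the second-last site took 22.2% and 29.6% against 34.4% and 47.3%. The last site took 77.8% and 51.9% against 43.7% and 25.4%. The untreated shares rest on 18 and 27 counts, with intervals of up to 25.4 points, and the difference in share was not called (log2 change 0.65 ± 0.76, unadjusted p = 0.418).

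In the share test the gene lists gave no called tag. In lysosomal proteases and hydrolases (24 genes, 121 tags) the top tag held a median of 58.9% and at an unadjusted p under 0.05 it had 1 higher tag and 1 lower tag, in antigen presentation (6 genes, 21 tags) the median was 57.7%, and in lipid handling (9 genes, 42 tags) 65.3% with 1 lower. For complement and Fc receptors (8 genes, 21 tags) it was 64.0%. Counts were more concentrated in cytosolic ribosomal proteins and translation factors (31 genes, 75 tags, median 94.3%), iron and redox (7 genes, 20 tags, 89.8%), the actin cytoskeleton (19 genes, 85 tags, 87.2%, 1 tag lower), lectins and secreted products of alveolar macrophages (12 genes, 41 tags, 82.1%) and the respiratory chain and ATP synthase (27 genes, 61 tags, 74.2%). The 2 genes of the 3′ end processing list, Nudt21 and Pabpc1, had a median of 68.5%, close to 69.1% over all 1131 genes, at low counts. The top tag lay upstream in 13 of 24 lysosomal and 10 of 31 ribosomal genes, against 611 of 1131 overall.

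Among receptors and secreted products with several strong tags, Chil3 (deposited as Chi3l3, a chitinase-like protein of alveolar macrophages) had 59.9% and 63.2% in untreated and 63.5% and 67.4% in day 21 libraries on its second-last site and 25% and 29.8% against 21.6% and 29.9% on the last. The class I molecule H2-D1 had 57.2% and 58.5% against 63.5% and 68.9% on an exon 4 site. Fcgr3, an activating receptor for IgG, had 10.9% and 12.5% against 8.83% and 4.65% on its last site, and lysozyme (Lyz2) had 74.2% and 64.0% against 76.2% and 80.5% on a start-region site of exon 1. The integrin chain Itgax, a marker of alveolar macrophages, had 34.1% and 27.4% against 26.7% and 4.69% on the last site. These shares rest on only 126 and 168 against 60 and 64 counts, with counting intervals of up to 13.0 points to a side. Cd74, the invariant chain of class II molecules, ran from 29.2% to 89.1% on its last site, highest in untreated replicate 1 and lowest in day 21 replicate 2, with the groups overlapping. For Vim (vimentin) the last site had 91.7% and 88.8% against 88.0% and 80.4%. The smallest unadjusted p among the tags of these genes given here was 0.217 by edgeR, for the last site of Itgax.

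By contrast, single sites dominated in every library in Clec4n, the C-type lectin receptor for fungal mannans (98.9% to 99.5%), Arpc5 (99.5% to 99.8%), Atp5c1 (99.3% to 99.5%), Ndufa3 (99.7% to 99.8%), Uqcrc1 (99.3% to 99.8%), Gpx4 (93.3% to 97.8%) and Prdx1 (96.1% to 99.2%). In Ctss, cathepsin S, the last site took 97.4% and 91.5% against 95.9% and 90.9%. Pltp, the phospholipid transfer protein, had 95.3% and 87.6% against 92.5% and 92.6% on its last site, and Soat1, which esterifies cholesterol, 92.4% and 96.0% against 96.3% and 96.4% on a coding site in exon 7. Among genes chosen after their values were seen, Abcg1 (a sterol exporter, deposited as WHITE) had 54.4% and 45.6% against 61.1% and 75.3% on a coding site in its last exon and 36.9% and 42.4% against 32.7% and 15.3% on a 3′ UTR site beyond it.

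Several symbols of the tables do not stand for 1 gene. Of these, 9 combine accessions of 2 or more genes and hold 37 member tags. The largest, deposited as G protein, combines 9 genes in 14 tags: its leading tag belongs to Rack1 (62.7% and 39.6% against 57.6% and 57.7%) and the next to Gng5 (14.1% and 37.6% against 18.4% and 16%), so its shares compare genes, not sites. The 11 tags of LOC100503946 match the mitochondrial genes mt-Atp6, mt-Atp8, mt-Co1, mt-Co2 and mt-Co3.

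Antisense tags made up 43 members. They share a CATG with a transcript of the other strand and read away from it. The Gm3903 tag, at the second-last NlaIII site of Actb, had 219707 and 254450 counts in untreated and 61517 and 131585 in day 21 libraries, while the sense tag of that site, deposited as Lrrc58, had 18, 109, 19 and 48 and all tags named Actb summed to 4484, 12795, 2003 and 5306. The abundance of the Gm3903 tag did not pass edgeR's test (log2 change -0.77, adjusted p = 0.996). LOC100503938 lies antisense to Actg1, LOC100504670 to Fth1 and LOC100503984 to mitochondrial genes (all 3 named after their values were seen). For the leading LOC100504670 tag, at the most 5′ site of Fth1, the counts were 184 and 433 against 249 and 131, and Fth1 itself had 3375 and 11013 against 6205 and 6202.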

How the data were processed

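Per the file headers and values, the authors deposited 1 table per library of raw whole-number counts of 21-base SAGE tags with a symbol and an accession, and no count of 1. The build was mm9, per the submitters' processing notes. The tool that matched tags to genes is not given in the sources used here. Totals are given above, and counts were not rescaled by the authors as far as the values show.

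Tags were matched exactly to GENCODE M21 transcripts (GRCm38) after CATG, so positions are those of that build. Shares are a tag's count over the summed member counts of its symbol. Group comparisons used edgeR 4.0.16 (R 4.3.3) with TMM factors and glmQLFit over all 5437 tags with a summed count of 20 or more. In its diffSpliceDGE the log2 change is that of a tag relative to its whole gene, and p-values were adjusted by Benjamini-Hochberg over all 3129 tags or 1131 genes. Abundance used glmQLFTest over the 5437 tags. The common biological coefficient of variation was 0.534. limma 3.58.1, DESeq2 1.42.0, edgeR's likelihood ratio test, other filters and scalings, the replicate number as a block, and leaving out each library were alternatives. Tables were handled with Python 3.11.15, pandas 2.3.3 and scipy 1.17.1. The share test was tested on simulated data with 50 tags at each size of change. It called 2% of tags changed 2-fold, 0% at 4-fold, 8% at 8-fold and 22% at 16-fold. It called 1 tag in a simulation where nothing changed. Most changes of these sizes would thus be missed.

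Genes named are those of the 10 tags of smallest share p, the 10 genes with most tags, the 10 of largest count, the 10 tags with the largest non-overlapping difference in share, the 5 genes with most counts off annotated last sites, and the 3 most counted of each gene list. One gene that this rule names is not reported here. Others are said to be chosen after their values were seen. The members and lists were chosen with earlier results of these data known.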

Additional observations from a re-analysis of the deposited data

How the results depend on the processing

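The share test, which called 0 tags and 0 genes with edgeR's quasi-likelihood test, called 1 tag with the likelihood ratio test, and 1 tag and 1 gene with the replicate number as a block. Each time this was Atp13a2 (gene adjusted p = 0.0174 with the block). Without each library in turn it called 0 tags and 0 genes. The block was fitted because both groups number their libraries 1 and 2. The labels tie no pair together. The deviations of same-numbered libraries correlated at 0.50 for log2 CPM over 5437 tags. For log2 shares they correlated at 0.33 over the 1371 tags of genes with 100 counts or more in every library. With 2 pairs this does not establish a pairing. The count of tags that changed in abundance, 6, depended most on the setting. It was 3 with DESeq2 size factors, 14 with filterByExpr, 14 at a summed count of 50 or more, 34 with no filter, 93 with the replicate block, 0 for tags that match 1 gene, 46 with the likelihood ratio test, 30 with DESeq2, and 5 to 30 without each library in turn (23 without untreated replicate 1, 30 without day 21 replicate 1). The pooled last-site difference of 7.22 points was 1.21 for tags that match 1 gene, -2.62 as a mean over genes, -2.85 without Ctsd and Gm3903, and 3.31 to 11.1 without each library in turn. Leaving out these 2 genes, and grouping tags by the gene of their accession (0 tags, 0 genes and 6 abundance calls), were alternatives chosen after seeing the data. The log2 change of the Gm12715 tag ran from -3.06 to 0.36 without each library in turn, the latter without untreated replicate 2. Of the other alternatives for named tags, 189 of the share and 42 of the abundance values kept direction and side of the threshold, and 5 abundance values were no longer past it. Beyond fewer samples or tags, the cause of these changes was not tested.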
